A study of Mus musculus with 12 samples.

Results

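Glutathione transferases are the enzymes that join the peptide glutathione to reactive chemicals, and 10 of their genes were followed in the hearts of mice given carbon tetrachloride (CCl4). The 10 genes were the alpha-class members Gsta1, Gsta2, Gsta3 and Gsta4, the mu-class members Gstm1, Gstm2 and Gstm5, Gstp1 of the pi class, Gstt1 of the theta class and Gstk1 of the kappa class. They were picked by symbol from the 31722 gene symbols of the deposited table, with values of the comparison of CCl4 and Control hearts already known, so their differences between the groups are descriptions and carry no test. The hearts came from C57BL/6J mice in a CCl4 group of 6 and a Control group of 6, and the question was how cirrhosis of the liver, which CCl4 is used to produce, bears on the heart. The tissue was heart collected once the model had been established, and 1 messenger RNA library was sequenced per heart. The labels give neither sex, age, dose, vehicle nor length of treatment, and they name no genetic change in either group. Levels are RPKM as deposited, a read number scaled by the length of the gene and by the reads of the library.

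Cytosolic glutathione transferases work as pairs of subunits, and their classes differ in which electrophiles they take. In the liver CCl4 is turned by the cytochrome Cyp2e1 into a radical that starts lipid peroxidation, and the aldehydes of lipid peroxidation are substrates of glutathione transferases. Many of these genes are targets of the transcription factor Nfe2l2 (NRF2), which acts through antioxidant response elements. In heart muscle the enzymes are known mainly for removing such aldehydes and the products of oxidative stress.

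Several of the genes have close copies in the genome, and the copies decide how far a level belongs to 1 gene. On GRCm38, Gsta4 (chromosome 9, 78182774 to 78209349, plus strand), Gsta1 (78230656 to 78242684, plus) and Gsta2 (78331018 to 78355788, minus) lie along chromosome 9, and Gm3776 (78257129 to 78269166, plus), a gene model of the table that is no member, lies between Gsta1 and Gsta2. The coding sequences of Gsta1 and Gm3776 differ at 2 of 672 bases, T25C and C591T, with positions counted from the A of the start codon and the base of Gsta1 given first. The longest run without a difference is 565 bases. Of all 100-base windows of Gsta1 transcripts, 81.8% also occur in another gene, 71.3% in Gm3776 alone or together with others. The stretch of coding bases 518 to 667 shows how close the alpha copies are. It is taken from GENCODE M21 transcripts of Gsta1 and of the genes that resemble it most, 5′ to 3′, and capitals mark bases that differ from Gsta1.
Gsta1: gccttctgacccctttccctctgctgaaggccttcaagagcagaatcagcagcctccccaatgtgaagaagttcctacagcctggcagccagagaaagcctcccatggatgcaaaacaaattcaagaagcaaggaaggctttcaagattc
Gm3776: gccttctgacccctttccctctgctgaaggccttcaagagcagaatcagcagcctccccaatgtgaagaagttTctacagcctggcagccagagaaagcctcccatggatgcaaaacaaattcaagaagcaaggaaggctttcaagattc
Gm10639: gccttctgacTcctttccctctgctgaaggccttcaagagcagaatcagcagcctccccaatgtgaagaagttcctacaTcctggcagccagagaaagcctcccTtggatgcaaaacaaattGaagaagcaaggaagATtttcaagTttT
Gsta2: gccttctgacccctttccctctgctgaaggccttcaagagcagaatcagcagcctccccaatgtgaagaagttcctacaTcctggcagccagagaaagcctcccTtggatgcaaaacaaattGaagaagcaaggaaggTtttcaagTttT
Against Gsta1 the stretch holds 1 difference in Gm3776, 8 in Gm10639 and 6 in Gsta2. Over the whole coding sequence Gsta2 and Gsta1 have 97.5% of aligned bases in common, whereas Gsta3 shares 73.4% and Gsta4 65.5% with Gsta1. In Gsta2, 24.8% of the 100-base windows also occur in another gene, and in Gstp1 38.4% do, all of them in Gstp2. The share was 6.17% in Gstm1, 5.58% in Gstm5 and 0.548% in Gstm2, and no window of Gsta3, Gsta4, Gstt1 or Gstk1 occurs elsewhere in the transcripts. How the authors' counting treated reads that match more than 1 gene is not given in the sources used here, so the levels of Gsta1, Gsta2 and Gstp1 are uncertain in that respect. Gstm5 overlaps the antisense model 4933431E20Rik and Gsta3 overlaps the antisense model Gm28836. The strand setting of the counting is not given either.

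The 12 libraries differed in relative depth. From RPKM and exon length the step that reads add to a value could be recovered, and the libraries held between 27638000 (Control replicate 6) and 66704600 (CCl4 replicate 4) such steps. A limma trend fit to log2(RPKM + 1) took in the 14087 genes that reached 0.5 RPKM in 6 libraries or more. After Benjamini-Hochberg adjustment it called 0 genes (0%) higher and 0 genes (0%) lower in CCl4 hearts at the 0.05 threshold. Its lowest adjusted p was 0.0731. Before adjustment 1435 genes had a p under 0.05, of which 226 were higher (1.6%) and 1209 lower (8.58%). This split turned on the scaling, with 772 higher and 792 lower under median-of-ratios factors, and 643 higher and 591 lower once mitochondrial RNA was left out of the scaling. A voom fit to the recovered steps also gave 0 genes (1370 at an unadjusted p under 0.05), and so did an exact rank-sum test (1269). With limma's array weights, which let libraries count unequally, 770 genes were higher and 1479 lower. Replicates 2 and 5 of each group had almost no Xist RNA (0.126 RPKM or less) and 6.18 to 7.79 RPKM of the Y-linked Ddx3y. Cardiomyocyte markers dominated every heart (7 genes, summed level 18101 to 27970 RPKM in CCl4 hearts and 25474 to 31840 RPKM in Control hearts), and hepatocyte markers stayed at a summed 0.772 RPKM or less. In bulk tissue, fewer cells of a type and less RNA per cell cannot be told apart.

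Of the 10 members, 9 met the level filter and Gsta2 did not. On the log2(RPKM + 1) scale the CCl4 minus Control difference was below 0 in 8 of the 9 and above 0 in Gsta3, while 65.7% of all genes tested were below 0. With median-of-ratios scaling 7 members and 51.8% of all genes were below 0, and with a scaling that leaves mitochondrial RNA aside 7 members and 44.6% of all genes, the member that crossed 0 being Gstt1 each time. The median difference was -0.27 over the 9 members and -0.05 over all genes tested. No call is given for a member in this fit or its alternatives, because the members were chosen with the contrast known. Array weights, which called 770 of 14087 genes higher and 1479 lower, gave members differences from -0.74 (Gsta1) to 0.75 (Gsta3). Leaving out CCl4 replicate 1, with 7 higher and 40 lower among all genes, gave -0.74 (Gsta1) to 0.74 (Gsta3). Leaving out both hearts numbered 1, with 102 higher and 221 lower among all genes, gave -0.74 (Gsta1) to 0.94 (Gsta3). In 1 member, Gsta1, all CCl4 hearts were below all Control hearts, as in 0.724% of genes tested, and in 0 members were all CCl4 hearts above all Control hearts, as in 0.0355%. In 3 members (Gsta1, Gstp1 and Gstk1) all 6 CCl4 hearts were below the Control median, as in 11.1% of genes tested. Since the members were chosen with this contrast known, nothing is read from these counts. The summed level of the 10 members was 171 ± 29.1 RPKM in CCl4 hearts and 208 ± 17.9 RPKM in Control hearts (SD, n = 6 each), and CCl4 replicate 4, at 225 RPKM, was the only CCl4 heart inside the Control range of 185 to 228 RPKM.

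**Figure D1:**
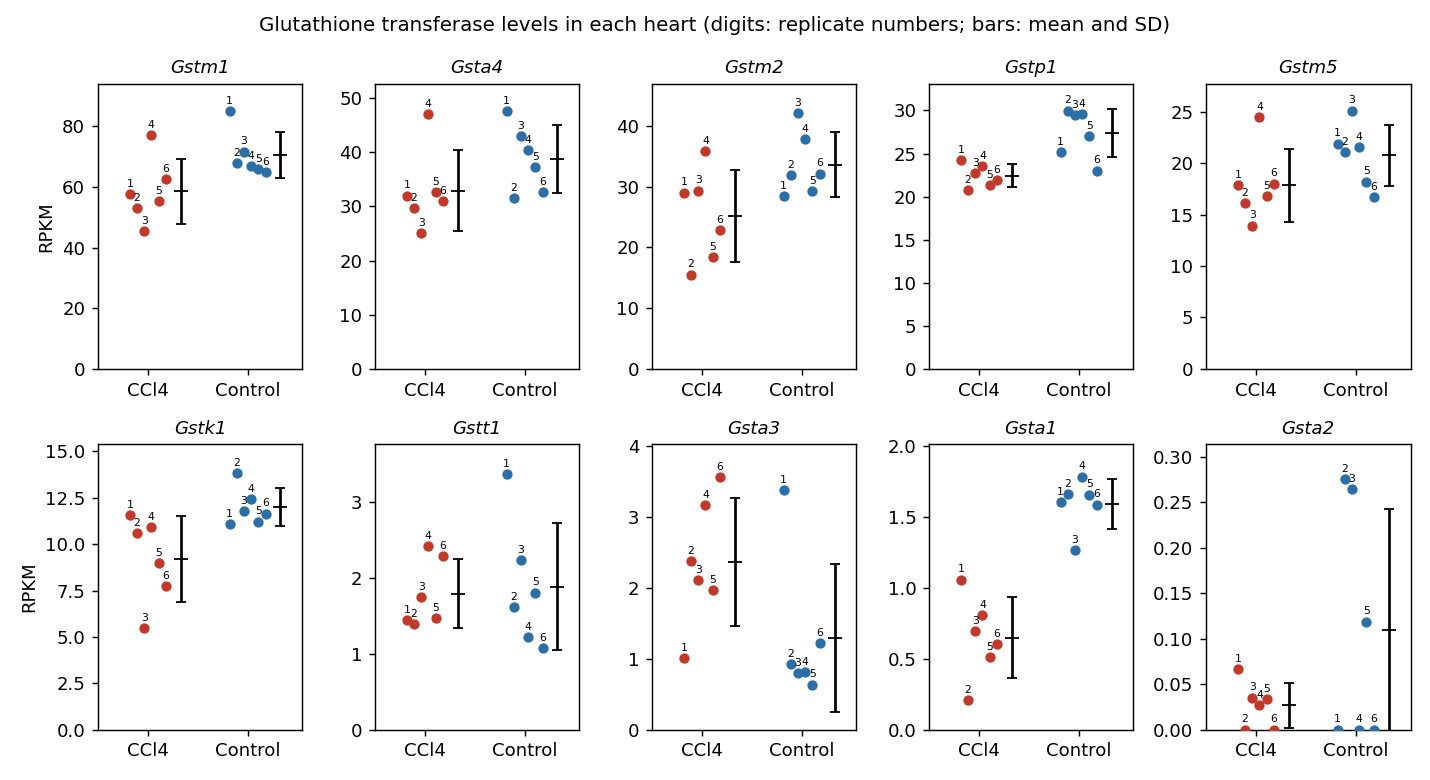
Level of each of the 10 glutathione transferase genes (RPKM, linear axes that start at 0) in 6 CCl4 hearts and 6 Control hearts, with replicate numbers beside the points and the mean and SD of each group as bars. The Gsta1 points of the groups do not overlap, Gsta3 is above the Control median in all 6 CCl4 hearts with Control replicate 1 at 3.38 RPKM, and in the 6 most abundant genes the groups overlap.

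The order of levels was measured within each heart and does not rest on the contrast of the groups. Gstm1 was the most abundant member, at a mean of 64.5 RPKM over the 12 hearts, above 96.8% of the genes tested. Gsta4 followed with 35.8 RPKM, Gstm2 with 29.4, Gstp1 with 24.9, Gstm5 with 19.3 and Gstk1 with 10.6 RPKM. Gstt1 and Gsta3 averaged 1.83 RPKM each, Gsta1 1.12 RPKM and Gsta2 0.0684 RPKM. Of the 9 pairs of neighbours in this order, 6 differed in an exact two-sided sign-flip permutation test over the 12 hearts with Benjamini-Hochberg adjustment over the pairs. Gstm1 was above Gsta4 in 12 of 12 hearts by 0.84 ± 0.12 log2 units (SD of the difference, adjusted p = 0.0011, exact test), the smallest p that 12 hearts allow being 0.000488 before adjustment. Gsta4 was above Gstm2 in 10 of 12 hearts (adjusted p = 0.0198, exact test), Gstp1 above Gstm5 in 11 of 12 (adjusted p = 0.00176), and Gstm5 above Gstk1 in 12 of 12 (adjusted p = 0.0011). Gstk1 was above Gstt1, and Gsta1 above Gsta2, in 12 of 12 hearts as well (adjusted p = 0.0011 for each, exact test). Gstm2 and Gstp1 could not be told apart (difference 0.19 ± 0.29 log2 units, adjusted p = 0.0571, exact test), nor could Gstt1 and Gsta3 (0.07 ± 0.46, adjusted p = 0.613) or Gsta3 and Gsta1 (0.37 ± 0.84, adjusted p = 0.179). RPKM divides by gene length, and the exon length in GENCODE M21 was 4344 bases for Gsta3, 1528 for Gstt1 and 956 for Gsta1. Gsta3 had 225 to 872 read steps per CCl4 heart and 118 to 688 per Control heart. Gstt1 had 84 to 234 and 43 to 241. The place of Gsta3 in the order thus depends on the length used. The first 6 places were the same by group mean in CCl4 and in Control hearts, and Gsta3 was in place 7 in CCl4 hearts and place 9 in Control hearts. Gstm1 made up 34.2 ± 2.06% of the summed level in CCl4 hearts and 33.9 ± 2.26% in Control hearts (SD, n = 6 each).

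Gsta1, an alpha-class enzyme that xenobiotics induce in the liver, was low in the heart and lower still in CCl4 hearts. Its level was 1.06, 0.211, 0.695, 0.808, 0.513 and 0.605 RPKM in CCl4 replicates 1 to 6, against 1.60, 1.66, 1.27, 1.79, 1.66 and 1.59 RPKM in Control replicates 1 to 6. The highest CCl4 heart, replicate 1, was below the lowest Control heart, replicate 3, and CCl4 replicate 2 was the lowest of all. The means were 0.648 ± 0.286 RPKM in CCl4 hearts and 1.59 ± 0.175 RPKM in Control hearts (SD, n = 6 each), a log2 difference of -0.67 (SE 0.11) on the log2(RPKM + 1) scale. These levels rest on 8 to 52 steps per CCl4 heart and 40 to 77 steps per Control heart, and at such a level the pseudocount of 1 shrinks the difference. With a pseudocount of 0.5 it was -0.90, with 0.1 it was -1.28, and the voom fit to steps gave -1.36. Across single hearts left out it stayed between -0.74 and -0.58.

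The near-copy Gm3776 was at 2.00, 0.433, 0.642, 0.956, 0.696 and 0.479 RPKM in CCl4 replicates 1 to 6, against 1.49, 1.71, 1.80, 1.34, 2.30 and 1.39 RPKM in Control replicates 1 to 6. Thus 5 CCl4 hearts were below every Control heart, and CCl4 replicate 1 was among the Control hearts. The log2 difference was -0.55 (SE 0.16, adjusted p = 0.272, limma), and 5 of 6 CCl4 hearts were lower than the median of the Control group. Without CCl4 replicate 1 it was -0.70 and passed (adjusted p = 0.0218, limma), and Gsta1 was at -0.74 in that fit. That pass depends on leaving out the CCl4 heart that stood apart from the other CCl4 hearts in Gm3776. With a pseudocount of 0.1 the difference of Gm3776 was -1.02, and in the voom fit it was -1.09. Because reads can be shared between the pair, this value is no second measurement that is independent of Gsta1. With Gsta1 and Gm3776 added together, 5 CCl4 hearts were at 0.643 to 1.76 RPKM and CCl4 replicate 1 at 3.06 RPKM, against 2.98 to 3.95 RPKM in Control hearts. The sum averaged 1.52 ± 0.840 RPKM in CCl4 hearts and 3.26 ± 0.363 RPKM in Control hearts (SD, n = 6 each), a ratio of 0.465. The separation of the groups seen for Gsta1 was thus not kept by the sum of the pair, in CCl4 replicate 1.

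**Figure D2:**
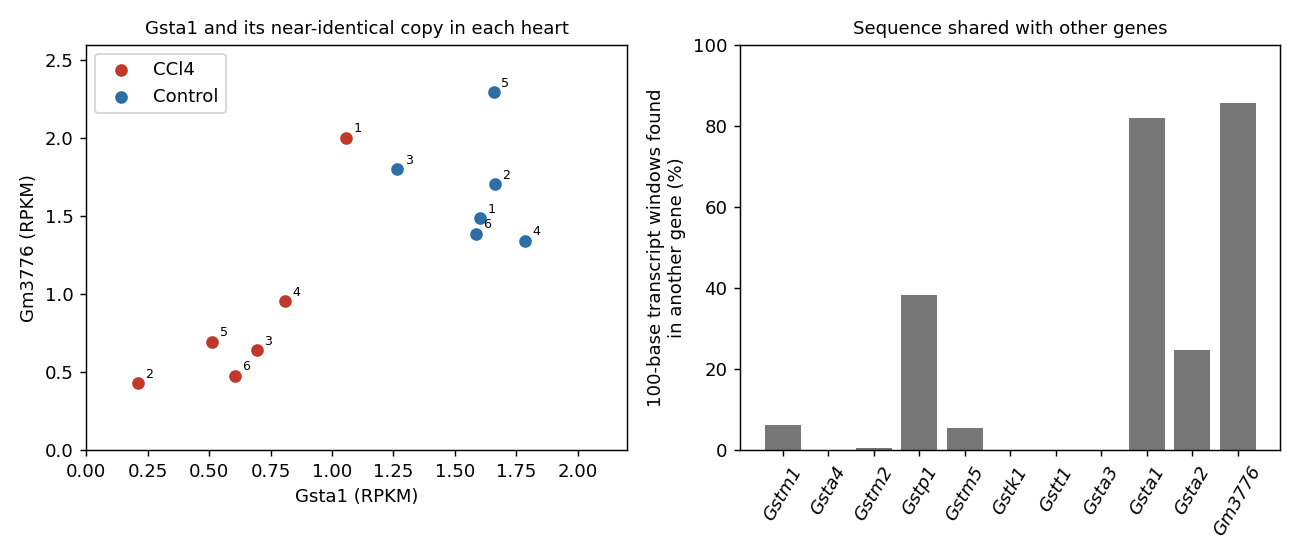
Left, level of Gm3776 against level of Gsta1 (RPKM) in each heart, with replicate numbers and colours for CCl4 and Control. Right, share of 100-base transcript windows of each gene that also occur in another gene (percent); the left panel shows CCl4 replicate 1 at 1.06 RPKM of Gsta1 and 2.00 RPKM of Gm3776, and the right panel shows 81.8% for Gsta1 and 85.6% for Gm3776.

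Gsta2, the member nearest to Gsta1 in sequence, was barely present. It was listed at 0 in CCl4 replicates 2 and 6 and in Control replicates 1, 4 and 6. The other hearts had 0.0268 to 0.0662 RPKM in the CCl4 group and 0.119 to 0.276 RPKM in the Control group, from 4 steps or fewer per CCl4 heart and 18 steps or fewer per Control heart. No difference can be read at this depth. Gm10639, the copy nearest to Gsta2 with 98.5% of aligned coding bases in common, was at 0.283 RPKM or less in every heart.

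Gsta3, an alpha-class enzyme that in the mouse is known for conjugating the epoxide of aflatoxin, was the member that lay higher in CCl4 hearts. It lies on chromosome 1 (21240589 to 21265661, plus strand). Its level was 1.01, 2.37, 2.10, 3.17, 1.97 and 3.56 RPKM in CCl4 replicates 1 to 6, against 3.38, 0.918, 0.792, 0.811, 0.634 and 1.22 RPKM in Control replicates 1 to 6. All CCl4 hearts were above the Control median of 0.865 RPKM, but Control replicate 1 was higher than 5 of them, and CCl4 replicate 1 was below Control replicate 6. The replicates numbered 1 were thus each at the far side of their group. The means were 2.36 ± 0.909 RPKM in CCl4 hearts and 1.29 ± 1.04 RPKM in Control hearts (SD, n = 6 each), a log2 difference of 0.60 (SE 0.24). The pseudocount mattered here as well, with 0.96 at a pseudocount of 0.1 and 1.04 in the voom fit to steps. Without Control replicate 1 it was 0.80, and without both hearts numbered 1, an alternative chosen after the values were seen, it was 0.94. Control replicate 1 also had the highest summed level of atrial markers (15045 RPKM, against 604 to 4442 RPKM in the other Control hearts). With the level of atrial markers as a covariate the log2 difference of Gsta3 was 0.72. Leaving out the heart of each group richest in atrial markers, also chosen after the values were seen, gave 0.73. Over 12 hearts with group means taken off, Gsta3 and the atrial markers had r = 0.36 (adjusted permutation p = 0.569). Without the 2 hearts farthest in atrial markers r was -0.35. Atrial tissue as a cause of the level of Gsta3 was not tested.

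The differences of Gsta1 and Gsta3 were on opposite sides of 0 although both are of the alpha class, and their start regions are shown for that reason. RefSeq (GRCm38.p6) gives for Gsta1 chr9:78230419-78230718 and for Gsta3 chr1:21240335-21240634, both on the plus strand, from 250 bases before the start to 50 bases after it. Capitals mark a match to the core of the antioxidant response element, TGACNNNGC.
Gsta1: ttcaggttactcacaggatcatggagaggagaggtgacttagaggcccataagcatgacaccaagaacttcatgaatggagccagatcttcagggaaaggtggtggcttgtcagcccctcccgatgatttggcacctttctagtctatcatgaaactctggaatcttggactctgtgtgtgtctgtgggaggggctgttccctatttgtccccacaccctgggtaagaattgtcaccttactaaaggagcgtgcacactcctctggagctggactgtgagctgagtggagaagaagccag
Gsta3: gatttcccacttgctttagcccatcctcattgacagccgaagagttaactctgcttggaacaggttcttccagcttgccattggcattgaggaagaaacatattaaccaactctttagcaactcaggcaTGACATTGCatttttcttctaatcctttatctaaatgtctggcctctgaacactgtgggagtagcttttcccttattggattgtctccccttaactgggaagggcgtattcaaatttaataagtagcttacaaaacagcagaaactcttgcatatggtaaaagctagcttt
The motif was looked for on both strands, and it was found in Gsta3 and Gstm5 among 9 members with a start region in the table, against 3781 of 27025 genes (13.99%). The log2 difference of Gstm5, -0.21, lay on the same side of 0 as that of Gsta1. A match is a description of the letters in this window and not a site of binding, and no bases outside the window were searched.

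Gsta4, the alpha-class enzyme with the highest activity towards 4-hydroxynonenal, an aldehyde of lipid peroxidation, was the alpha member with the most RNA in the heart. CCl4 hearts had 25.1 RPKM at the lowest (replicate 3), 31.5 at the median and 47.1 at the highest (replicate 4), against 31.6, 38.9 and 47.6 RPKM in Control hearts. The groups overlapped, with 3 CCl4 hearts below every Control heart. The mean was 32.9 ± 7.44 RPKM in CCl4 hearts and 38.8 ± 6.20 RPKM in Control hearts (SD, n = 6 each), a log2 difference of -0.24 (SE 0.14). CCl4 replicate 4 stood apart from the other CCl4 hearts, which were at 25.1 to 32.6 RPKM, and without it the difference was -0.35. It was -0.13 with the level of atrial markers as a covariate, -0.15 with mitochondrial RNA out of the scaling and -0.16 with quantile normalization.

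The mu-class genes are neighbours on chromosome 3, with Gstm5 at 107895821 to 107898686 (plus strand), Gstm2 at 107981702 to 107986453 (minus) and Gstm1 at 108012255 to 108017973 (minus). Gstm1, a major mu-class subunit of the mouse, had 45.4 RPKM at the lowest, 56.5 at the median and 77.2 RPKM at the highest in CCl4 hearts, against 65.0, 67.4 and 85.2 RPKM in Control hearts. In all, 5 CCl4 hearts were below every Control heart, and CCl4 replicate 4 was above all Control hearts but replicate 1. The means were 58.6 ± 10.8 RPKM in CCl4 hearts and 70.4 ± 7.59 RPKM in Control hearts, a log2 difference of -0.27 (SE 0.12), or -0.18 with mitochondrial RNA out of the scaling. Gstm2, a mu-class subunit whose human counterpart is abundant in muscle, had 15.5, 25.9 and 35.9 RPKM as the lowest, median and highest of CCl4 hearts, against 28.4, 32.0 and 42.2 RPKM in Control hearts. Replicates 2, 5 and 6 of the CCl4 group were below every Control heart. The log2 difference of Gstm2 was -0.44 (SE 0.18), and the lowest CCl4 hearts were the replicates 2 and 5 that lacked Xist RNA, as they were for Gsta1. Control replicates 2 and 5, which also lacked it, had 31.9 and 29.3 RPKM of Gstm2, below the Control median of 32.0 RPKM. Their Gsta1 was at 1.66 RPKM each, above the Control median of 1.63 RPKM. With the level of Xist as a covariate the difference was -0.67 for Gsta1 and -0.45 for Gstm2. Gstm5 had 13.9, 17.3 and 24.5 RPKM as the lowest, median and highest of CCl4 hearts, against 16.7, 21.3 and 25.1 RPKM in Control hearts, with overlap and a log2 difference of -0.21 (SE 0.13). That of Gstm5 was -0.12 with mitochondrial RNA out of the scaling and -0.13 with the atrial marker covariate.

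Gstp1 of the pi class, on chromosome 19 (4035407 to 4037985, minus strand), varied least within the CCl4 group. CCl4 hearts were at 20.8 to 24.3 RPKM with a median of 22.3, against 23.0 to 29.99 RPKM with a median of 28.2 in Control hearts. In all, 4 CCl4 hearts were below every Control heart, and all 6 were below the Control median. The coefficient of variation was 5.90% in CCl4 hearts, where that of the other members that met the filter was between 18.4% for Gstm1 and 44.0% for Gsta1. The log2 difference was -0.27 (SE 0.08), or -0.18 with mitochondrial RNA out of the scaling. Gstp2, the copy with which Gstp1 shares 98.1% of aligned coding bases, was at 2.45 ± 0.442 RPKM in CCl4 hearts and 2.83 ± 0.183 RPKM in Control hearts (log2 difference -0.16, SE 0.09, adjusted p = 0.560, limma).

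Gstt1 of the theta class, which acts on small halogenated hydrocarbons, is on chromosome 10 (75783813 to 75798584, minus strand). CCl4 hearts had 1.39 RPKM at the lowest, 1.60 at the median and 2.42 RPKM at the highest, against 1.07, 1.71 and 3.36 RPKM in Control hearts. The CCl4 hearts all lay inside the Control range. The log2 difference was -0.02 (SE 0.17) as deposited and lay on the other side of 0 in 11 of 27 alternatives, so no direction is given for this gene.

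Gstk1, a transferase of mitochondria and peroxisomes on chromosome 6 (42245935 to 42250447, plus strand), had 11.6, 10.6, 5.47, 10.9, 8.99 and 7.74 RPKM in CCl4 replicates 1 to 6, against 11.1, 13.8, 11.8, 12.4, 11.2 and 11.7 RPKM in Control replicates 1 to 6. Only CCl4 replicate 1 was inside the Control range. The means were 9.21 ± 2.31 RPKM in CCl4 hearts and 12 ± 1.01 RPKM in Control hearts (SD, n = 6 each), a log2 difference of -0.38 (SE 0.14). CCl4 replicate 3, the lowest, had the highest summed levels of fibroblast markers (798 RPKM, against 302 to 530 RPKM in the other CCl4 hearts) and macrophage markers (98.0 RPKM), and the lowest of cardiomyocyte markers (18101 RPKM). Without it the log2 difference of Gstk1 was -0.25. The part of cell mixture in this difference was not tested.

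**Figure D3:**
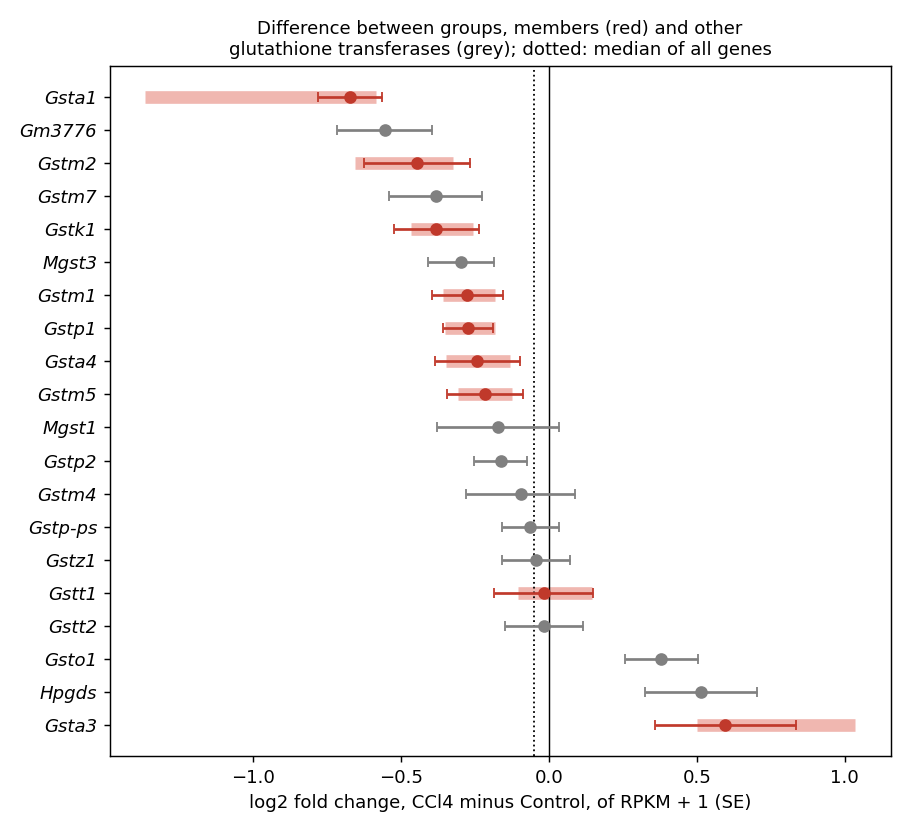
Difference between CCl4 and Control hearts on the log2(RPKM + 1) scale, with its standard error, for the 9 members that met the filter (red) and 11 other glutathione transferase genes (grey), ordered from lowest to highest. Pale bars span the alternatives of processing for the members, the dotted line is the median of all genes (-0.05), and Gsta1 (-0.67) and Gsta3 (0.60) lie at the ends.

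The rest of the family held 22 genes of the table, of which 11 met the filter and none passed the test. Their differences were above 0 in 2 and below 0 in 9, with a median of -0.09, near the median of all genes. On the higher side was Gsto1, an omega-class enzyme, at 13.8 ± 2.64 RPKM in CCl4 hearts and 10.3 ± 1.33 RPKM in Control hearts (SD, n = 6 each). Its log2 difference was 0.38 (SE 0.12, adjusted p = 0.319, limma), with 6 of 6 CCl4 hearts above the Control median. Hpgds, the sigma-class member that makes prostaglandin D2, was at 1.42 ± 0.937 RPKM in CCl4 hearts and 0.601 ± 0.116 RPKM in Control hearts (log2 difference 0.52, SE 0.19, adjusted p = 0.368, limma, 6 of 6 above the Control median). Hpgds was highest in CCl4 replicate 3 at 3.07 RPKM, the heart with the most macrophage marker RNA, and the part of macrophages in its level was not tested. On the lower side, Mgst3, a membrane-bound microsomal transferase, was at 26.0 ± 4.32 RPKM in CCl4 hearts and 31.9 ± 3.01 RPKM in Control hearts (log2 difference -0.30, SE 0.11, adjusted p = 0.376, limma). Gstm7 had 3.25 ± 0.946 RPKM in CCl4 hearts and 4.50 ± 1.01 RPKM in Control hearts (log2 difference -0.38, adjusted p = 0.419, limma). In both genes 5 of 6 CCl4 hearts were below every Control heart. The log2 differences of the remaining ones were -0.17 for Mgst1, -0.09 for Gstm4, -0.06 for Gstp-ps, -0.04 for Gstz1 and -0.02 for Gstt2 (adjusted p from 0.827 to 0.979, limma).

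The genes around the transferases gave no calls either. In the glutathione supply list, which covers cystine import, synthesis, reduction and the NADPH behind it, 7 of 17 tested genes were above 0 and 10 below, with a median of -0.02. The furthest were the NADPH-making enzymes Idh2 of mitochondria, at 221 ± 50.3 RPKM in CCl4 hearts and 276 ± 50.2 RPKM in Control hearts (log2 difference -0.33, adjusted p = 0.542, limma), and Me1 of the cytosol (-0.31, adjusted p = 0.530, limma). Among genes that use glutathione, 3 of 17 were above 0 and 14 below (median -0.05), and the furthest were the secreted peroxidase Gpx3 (-0.30, adjusted p = 0.851, limma) and the glutaredoxin Glrx3 (-0.25, adjusted p = 0.363, limma). Export and mercapturate formation, the route by which glutathione conjugates leave the cell and are trimmed, had 4 of 12 above 0 and 8 below (median -0.05). Its furthest genes were the dipeptidase Dpep1 (0.27, adjusted p = 0.756, limma) and the aminoacylase Acy3 (-0.26, adjusted p = 0.618, limma).

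The list of regulators of transferase genes had 4 of 13 above 0 and 9 below (median -0.02), led in size by Ppara, the fatty acid receptor (-0.17, adjusted p = 0.450, limma), and Nr1i3, the xenobiotic receptor CAR (-0.13, adjusted p = 0.603, limma). Targets of NRF2 outside the glutathione system were evenly spread, with 7 of 13 above 0, 6 below and a median of 0.00. The furthest were the epoxide hydrolase Ephx1 (0.30, adjusted p = 0.624, limma) and the aldo-keto reductase Akr1b8 (0.20, adjusted p = 0.812, limma). In drug and aldehyde metabolism, 6 of 15 were above 0 and 9 below (median -0.01). The carboxylesterase Ces1d was at 7.35 ± 4.38 RPKM in CCl4 hearts and 11.7 ± 2.61 RPKM in Control hearts (log2 difference -0.79, SE 0.35, adjusted p = 0.443, limma), and CCl4 replicate 3 was lowest at 1.28 RPKM. The flavin monooxygenase Fmo2 was at 2.42 to 16.2 RPKM in CCl4 hearts, against 2.21 to 3.75 RPKM in Control replicates 2 to 6 and 23.8 RPKM in Control replicate 1 (log2 difference 0.67, SE 0.47, adjusted p = 0.659, limma). As with Gsta3, CCl4 replicate 1 was the lowest CCl4 heart for Fmo2 and Control replicate 1 the highest Control heart.

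Some pairs of members also varied together between hearts of the same group. With each group's mean taken off, 36 pairs of the 9 members were compared over 12 hearts of log2(RPKM + 1), a set of tests added after the values had been seen. By Pearson's r, 4 pairs passed a permutation test with Benjamini-Hochberg adjustment over the 36. Gsta4 and Gstm1 had r = 0.88 (adjusted permutation p = 0.0227) and Spearman's rho = 0.72 (adjusted permutation p = 0.141), with r = 0.65 once the 2 hearts farthest from the median of Gsta4 were left out. Gstm1 and Gstm5 had r = 0.83 (adjusted permutation p = 0.0446) and rho = 0.87 (adjusted permutation p = 0.0144), with r = 0.75 without the 2 farthest hearts, and they were the pair that passed by both measures. Gsta4 and Gstm5 had r = 0.84 (adjusted permutation p = 0.0446) and rho = 0.80 (adjusted permutation p = 0.0963), with r = 0.75 without the 2 farthest. Gstm1 and Gstt1 had r = 0.69 (adjusted permutation p = 0.0446) and rho = 0.70 (adjusted permutation p = 0.141), but r = 0.35 without the 2 farthest, so that relation rests on those hearts. Gsta1 correlated with none of the 8 other members in this way, its r being highest with Gstm2 at 0.63 (adjusted permutation p = 0.269, rho = 0.57). All values of a heart share its library and its scaling, to which mitochondrial RNA contributed 31.6% to 43.8% of steps in CCl4 hearts and 29.5% to 37.9% in Control hearts. The correlations were computed on RPKM as deposited and under no other scaling. The share of all gene pairs that reach such an r was not computed. The 4 pairs are therefore not read as particular to this family.

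**Figure D4:**
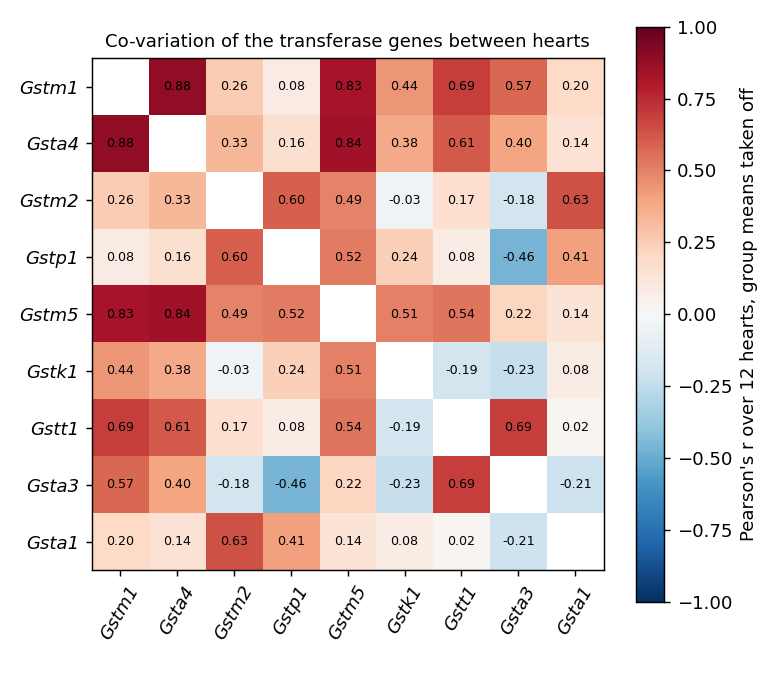
Pearson's r between members over 12 hearts, computed on log2(RPKM + 1) with each group's mean taken off and coloured from -1 (blue) to 1 (red). Gstm1, Gsta4 and Gstm5 form the block of high values (0.83 to 0.88), and the row of Gsta1 reaches 0.63 at most.

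Each of 9 marker lists was scored by the mean log2(RPKM + 1) of its tested genes, with group means taken off. Against these scores, none of 81 relations of a member with a cell type passed the adjustment. The nearest was Gstk1 with fibroblast markers (r = -0.86, adjusted permutation p = 0.0778, rho = -0.83, and r = -0.77 without the 2 farthest hearts). The summed endothelial markers were at 98.3 to 148 RPKM in CCl4 hearts and 153 to 186 RPKM in Control hearts and did not overlap. Their level thus moved with the groups as that of Gsta1 did. With group means taken off, Gsta1 and the endothelial score had r = 0.43 (adjusted permutation p = 0.576), and r = 0.07 without the 2 farthest hearts. The part of endothelial markers in the difference of Gsta1 was not tested.

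Outside the family, the genes most like each member were taken from 11411 genes with a mean of at least 1 RPKM, by Pearson's r over the 12 hearts with group means taken off. They are the top of a long list, and r is a description here. For Gstm1 they were Art3 (r = 0.97) and the aldehyde dehydrogenase Aldh2 (r = 0.97), for Gsta4 Hdac11 (0.96) and Kcnh2 (0.95), and for Gstm5 Svip (0.96) and the aldehyde dehydrogenase Aldh4a1 (0.95). Gstk1 was most like Aldh5a1 (r = 0.97), another aldehyde dehydrogenase, and Crhr2 (0.95). Gsta3 was most like the clock gene Per2 (r = 0.93), at 5.55 RPKM in CCl4 hearts and 3.07 RPKM in Control hearts, and Lonrf1 (0.91). Gsta1 was most like AU021092 (r = 0.91) and Chd6 (0.89), Gstm2 like Tfpi (0.95) and Ybx1 (0.92), Gstp1 like Yif1b (0.92) and Ppp1r11 (0.91), and Gstt1 like Gm36975 (0.93) and Rnf141 (0.92).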

How the data were processed

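The authors deposited RPKM for 31722 gene symbols, 1 column per heart, from 6 CCl4 and 6 Control hearts. TRIzol extraction and a stranded mRNA kit were used, per the labels' protocols. The tools named in the submitters' processing notes are Trimmomatic 0.36 and featureCounts (Subread 1.5.1), and the build is GRCm38. Aligner, annotation release, strand setting and the treatment of reads that match several genes are not given in the sources used here.

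Sample titles gave group and replicate number. The members, gene lists and tests were chosen with earlier results of these data known. Genes that reached 0.5 RPKM in 6 libraries or more were fitted on log2(RPKM + 1) with limma 3.58.1 in R 4.3.3 (lmFit and eBayes with trend, no covariate), and p-values were adjusted over all 14087. The added 1 shrinks differences of weakly expressed genes. P-values refer to the spread between these 12 mice. Steps were recovered with exon lengths of GENCODE M21, which matched 95.2% of symbols. Of values of up to 30 steps, 92.6% to 93.9% per library were whole within 0.05, where chance gives 10%. Between 70.3% and 73.9% were even, so a step may be less than a fragment and totals are relative depths.

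The text names all 10 members, the other transferases that met the filter, the 2 genes furthest from 0 in each further pathway list, any that passed, and the 2 genes most like each member. Gstm6, Aldh1a1 and other genes outside that rule were chosen after their values were seen. Correlations were tested with 100000 permutations. Alternatives covered the pseudocount, filter, scaling, weights, covariates, a replicate block, other tests and each library left out. The fit was tested on simulated data. Software comprised Python 3.11.15 with numpy 2.4.6, pandas 2.3.3 and, for plots, matplotlib 3.10.9.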

Additional observations from a re-analysis of the deposited data

Results flagged for a closer look

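In 66 groups of 6 hearts (33 genes), 11 held 1 heart far from the other 5, meaning that the gap to the nearest heart, as a share of the group's range, exceeded Dixon's critical value for 6 samples. Chance flags about 1 in 20 groups. Control replicate 1 was that heart in 6 of them. It had 3.38 RPKM of Gsta3, against 0.634 to 1.22 RPKM in the other Control hearts, and 85.2 RPKM of Gstm1, against 65.0 to 71.7 RPKM. It also had 4.52 RPKM of Gstt2 (others 2.13 to 2.98), 196.9 RPKM of Gpx3 (others 35.6 to 79.9), 30.4 RPKM of Ephx1 (others 17.4 to 20.1) and 23.8 RPKM of Fmo2 (others 2.21 to 3.75). This heart had the highest summed atrial markers, at 15045 RPKM, and the part of that in these levels was not tested.

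CCl4 replicate 4 was far above the other CCl4 hearts in Gsta4 (47.1 RPKM, others 25.1 to 32.6), Me1 (9.73 RPKM, others 3.86 to 5.92) and Acy3 (4.13 RPKM, others 1.67 to 2.17). CCl4 replicate 1 had 2.00 RPKM of Gm3776, against 0.433 to 0.956 RPKM in the other CCl4 hearts. Control replicate 5 had 0.824 RPKM of Hpgds, against 0.515 to 0.603 RPKM in the other Control hearts.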

How the results depend on the processing

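The sign of the difference was kept in all alternatives run for Gsta1, Gsta3, Gsta4, Gstm1, Gstm2, Gstm5, Gstp1 and Gstk1, and Gstt1 lay on the other side of 0 in 11 of 27. Sizes moved more, to -0.13 at the smallest for Gsta4, -0.12 for Gstm5 and -0.18 for Gstm1 and Gstp1. Scaling moved the median of all genes to -0.10 with TPM and to 0.02 without mitochondrial RNA. Leaving out 1 heart gave 0 to 7 genes higher, 0 to 40 lower and 0 to 1 of 98 other transferase and pathway genes. Of those, 7 and 40 came without CCl4 replicate 1, with Gm3776 as the 1 pathway gene. Without Control replicate 1 there were 6 and 25, without CCl4 replicate 4 there was 1 higher, and without CCl4 replicate 6 there were 2 lower. Array weights gave 770 higher, 1479 lower and 21 pathway genes. An atrial marker covariate gave 2 and 17. Leaving out both hearts numbered 1, chosen after seeing the data, gave 102 and 221, and 3 pathway genes, Gm3776 (-0.72), Fmo2 (1.38) and Aldh1a1 (1.05). Leaving out both hearts richest in atrial markers, also chosen later, gave 1 higher. The cause was not tested. The order of levels had 0 of 9 pairs past the threshold with the 6 CCl4 hearts alone and 6 of 9 with the 6 Control hearts alone, the smallest exact p before adjustment being 0.0312 in both. At that floor a pair can pass the adjustment only when most pairs reach it together. The 0 in CCl4 hearts therefore does not show that the order differed there. The replicate number as a block gave 0 higher and 0 lower (1060 at an unadjusted p under 0.05, limma). Same-numbered hearts deviated together at r from -0.47 to 0.23, and 2 of 6 correlated best with their own number. With so few hearts this cannot decide whether the numbers pair them. Replicates 2 and 5 were alike in both groups in having almost no Xist RNA. Depth limits Gsta1 (8 to 52 steps per CCl4 heart) and Gsta2 most.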

Other observations

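Some transferases below the level filter had values in every heart. Gstm6, a mu-class gene, was at 0.127 to 0.912 RPKM in CCl4 hearts and 0.305 to 1.47 RPKM in Control hearts, from 10 to 115 steps per CCl4 heart and 16 to 137 steps per Control heart, and 3 CCl4 hearts were below every Control heart. Gstt3 was at 0.365 ± 0.0982 RPKM in CCl4 hearts and 0.312 ± 0.112 RPKM in Control hearts, and Ltc4s, the leukotriene C4 synthase, at 0.461 ± 0.113 RPKM in CCl4 hearts and 0.424 ± 0.213 RPKM in Control hearts (SD, n = 6 each). Gstm3, Gm10639, Gstp3 and Gstt4 were listed at 0 in at least 1 heart of each group.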
